A study of Mus musculus with 6 samples.

Results

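Epithelial junction and identity genes are described here in medullary thymic epithelial cells (mTECs), the stromal cells that display self-antigens of peripheral organs to developing T cells. The 10 members are the adhesion genes Epcam and Cdh1, the claudin genes Cldn3, Cldn4, Cldn6 and Cldn7, and the transcription factor genes Elf3, Grhl2, Ovol1 and Ehf. They were picked by symbol out of 20443 genes in the deposited tables, with earlier results of these data known. All 10 were present and were among the 15720 genes tested. The Jmjd3-deficient group consisted of 3 libraries (cKO_262, cKO_263 and cKO_265) of mTECs from mice with floxed Jmjd3 alleles and a Cre driven by Foxn1, a gene of thymic epithelium. The control group consisted of 3 libraries (Con_253, Con_261 and Con_264) from mice with the floxed alleles and no Cre, so the deficiency and the Cre construct cannot be told apart. All mice were of strain C57BL/6 and 4 weeks old, and Jmjd3 (gene symbol Kdm6b) removes methyl groups from lysine 27 of histone H3. Levels are in FPKM, a measure divided by transcript length and by the size of the library, so levels of different genes are compared per length.

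Epithelial sheets are held together by adherens junctions, in which the E-cadherin made from Cdh1 binds its like on the next cell, and are sealed by tight junctions, whose strands are built of claudins. Grainyhead-like and Ovo-like factors and the epithelial members of the ETS family keep such genes on and mesenchymal genes off. In the thymus Epcam is the usual surface marker for epithelial cells, and claudins 3 and 4 mark embryonic cells that give rise to mTECs that express Aire.

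The libraries carried the markers of mTECs. Aire lay between 317 and 504 FPKM in the Jmjd3-deficient libraries and between 230.3 and 399 FPKM in the controls, and Krt5, a keratin of the medulla, lay between 384 and 565 FPKM in Jmjd3-deficient libraries and between 388 and 452 FPKM in controls. The targeted gene Kdm6b averaged 10.5 ± 1.58 FPKM in Jmjd3-deficient cells and 15.0 ± 4.40 FPKM in control cells (SD, n = 3 each), which did not pass the test (limma, log2 fold change -0.45, SE 0.23, adjusted p = 0.418). The difference was -0.70 without Con_264 and -0.19 without both Con_253 and cKO_265 (limma adjusted p = 0.355 and 0.763). The deleted part of the gene is not named in the labels, so this value does not check them. cKO_265 stood apart on the first principal component (53.0, against -22.7 to 7.42 in the others). Con_253 alone held Y-linked transcripts (12.6 FPKM over 4 genes, against at most 0.110 FPKM elsewhere). The number of reads per library is unknown. Each title carries its own number, but the labels do not say that the libraries were separate cell preparations. The p-values therefore measure the spread between these libraries.

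The members are protein coding, and their positions are those of the deposited tables (mm10), with the strand from GENCODE M21. Epcam spans chromosome 17 from 87635979 to 87651127 on the plus strand and Cdh1 chromosome 8 from 106603368 to 106670246 on the plus strand. Cldn4 spans chromosome 5 from 134945124 to 134946934 on the minus strand. Cldn3 begins 39279 bases beyond the end of Cldn4, at 134986214 on the plus strand, and is a gene of 1 exon, as Cldn4 is. Cldn6 spans chromosome 17 from 23679365 to 23682446 on the plus strand and ends 137 bases before Cldn9. Cldn7 spans chromosome 11 from 69964779 to 69967886 on the plus strand. Elf3 spans chromosome 1 from 135253574 to 135258472 and Ehf chromosome 2 from 103263433 to 103303196, both on the minus strand. Grhl2 spans chromosome 15 from 37233036 to 37363568 on the plus strand and Ovol1 chromosome 19 from 5549137 to 5560575 on the minus strand.

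Strand was not stated for the counting, and some members share their locus with antisense genes. The deposited locus of Cldn3 runs on to 135001350, the end of the antisense gene Wbscr25, which overlaps the last bases of Cldn3 and has no row of its own. Whether reads of Wbscr25 enter the Cldn3 value is not stated, so that value is uncertain. Elf3 lies within the antisense gene Gm26642, which shares 117 of the 2046 stretches of 50 bases of the longest coding Elf3 transcript. Ovol1 shares 672 of its 2923 such stretches with the pseudogene Gm31166 and the antisense gene AC126029.1, and Grhl2 shares 75 of 4898 with Gm16136. Epcam, Cdh1, Ehf and all 4 claudins share no such stretch with another annotated gene, which for Cldn3 holds of its own transcript and not of the longer deposited locus.

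Promoter sequences were found in RefSeq (GRCm38.p6) for 6 of the 10 members. Those of Elf3 and Cldn3, the members with the lowest values relative to control cells, and of Epcam and Cldn4, those with the highest, are printed from 250 bases before to 50 bases after the start of transcription, on the strand of the gene. Capitals mark ACCGGT, the core bound by grainyhead-like factors, and CACCTG or its reverse complement CAGGTG, the E-box bound by the repressors Snai1, Snai2 and Zeb1.
Elf3, chr1:135258423-135258722, minus strand: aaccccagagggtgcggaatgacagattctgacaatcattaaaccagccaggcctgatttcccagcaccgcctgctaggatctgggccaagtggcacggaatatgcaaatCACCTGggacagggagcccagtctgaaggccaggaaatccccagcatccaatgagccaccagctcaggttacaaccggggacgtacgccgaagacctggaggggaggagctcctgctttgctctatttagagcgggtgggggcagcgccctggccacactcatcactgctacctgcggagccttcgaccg
Cldn3, chr5:134985964-134986263, plus strand: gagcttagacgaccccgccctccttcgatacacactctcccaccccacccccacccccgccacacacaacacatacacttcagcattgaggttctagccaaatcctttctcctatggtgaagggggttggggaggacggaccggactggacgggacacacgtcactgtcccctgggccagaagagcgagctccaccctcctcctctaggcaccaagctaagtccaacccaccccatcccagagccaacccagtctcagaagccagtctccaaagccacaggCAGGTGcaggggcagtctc
Epcam, chr17:87635729-87636028, plus strand: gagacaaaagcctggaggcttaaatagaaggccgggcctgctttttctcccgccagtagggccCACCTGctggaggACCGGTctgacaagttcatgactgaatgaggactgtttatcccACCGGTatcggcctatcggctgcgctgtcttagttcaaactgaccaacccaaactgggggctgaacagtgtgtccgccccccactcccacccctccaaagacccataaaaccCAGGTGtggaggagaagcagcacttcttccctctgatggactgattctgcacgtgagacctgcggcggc
Cldn4, chr5:134946885-134947184, minus strand: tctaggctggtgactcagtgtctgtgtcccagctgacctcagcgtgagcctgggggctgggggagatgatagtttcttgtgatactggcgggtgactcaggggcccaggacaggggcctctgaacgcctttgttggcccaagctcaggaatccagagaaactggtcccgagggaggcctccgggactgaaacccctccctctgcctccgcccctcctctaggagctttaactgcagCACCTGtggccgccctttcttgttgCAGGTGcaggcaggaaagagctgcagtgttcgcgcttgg

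The Epcam promoter held 2 grainyhead cores and 2 E-boxes. The Cldn4 promoter held 2 E-boxes, and those of Cldn3 and Elf3 held 1 each. Over all 32851 promoters of the table, 2.33% held the grainyhead core and 20.2% held an E-box on either strand. The ETS motif CCGGAAG, which 8.86% of promoters hold on either strand, was not among the letters of these 4 windows. Of the promoters not printed, both entries of Cldn7 held 1 ETS motif each, and 1 of these entries also held 2 E-boxes. The Cldn6 promoter held 2 E-boxes and 0 ETS motifs. No marked stretches overlap in the 4 printed windows, and a match of letters is a description, not evidence of binding.

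The level of the members ran over more than 2 orders of magnitude. Cldn7 was highest, at a mean of 962 FPKM over the 6 libraries, followed by Epcam at 836, Cldn4 at 432, Cdh1 at 118, Elf3 at 98.4, Cldn3 at 26.3, Grhl2 at 18.2, Ovol1 at 13.3, Ehf at 11.7 and Cldn6 at 2.48 FPKM. Neighbours in this order whose ranges overlapped were Cldn7 and Epcam, Cdh1 and Elf3, Cldn3 and Grhl2, and Ovol1 and Ehf. The other 5 steps held in all 6 libraries with no overlap. Epcam and Cldn7 lay above at least 99.3% of tested genes in every library, whereas Cldn6 lay above 17.9% to 32.3% of them.

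**Figure D1:**
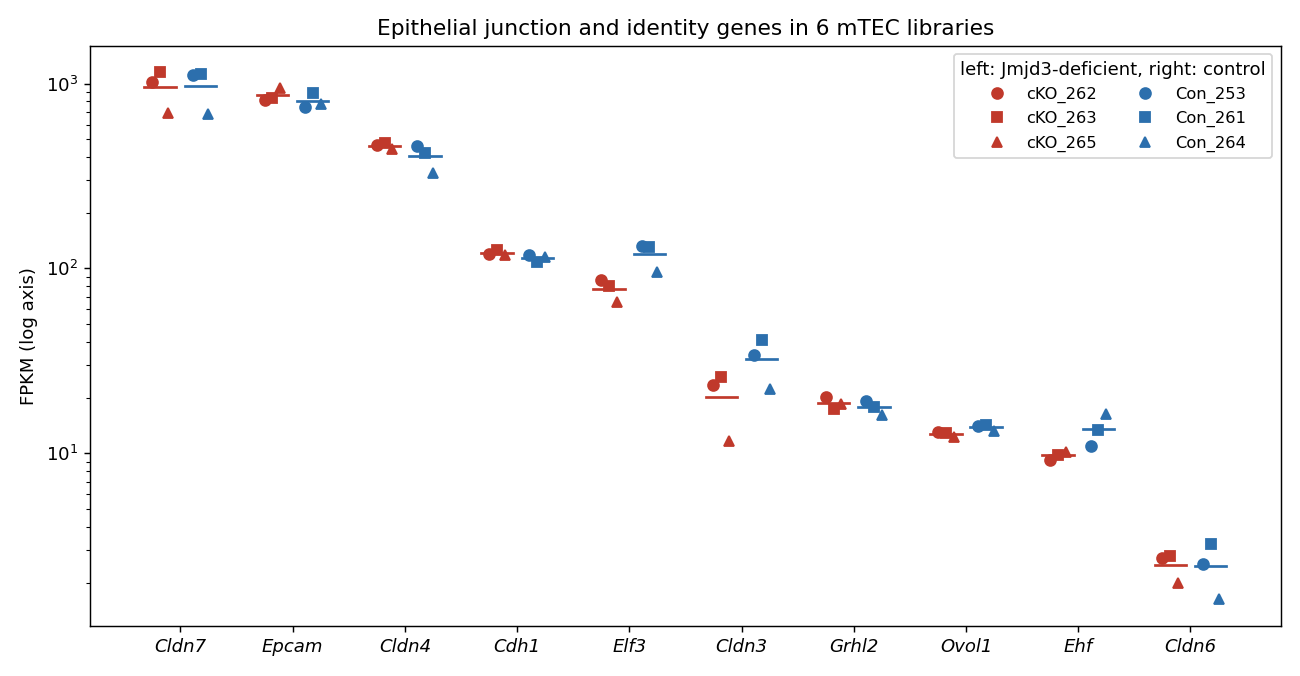
FPKM (log axis) of the 10 members in each library, Jmjd3-deficient left and control right, with a line at each group's mean. Elf3, Ovol1 and Ehf have no overlap between groups, and the claudins are lowest within their groups in cKO_265 and Con_264.

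Jmjd3-deficient cells were compared with control cells over all genes. Of the 10 members 0 changed (limma, adjusted p under 0.05), where 12 of 15720 genes, or 0.0763%, did. The number of changed genes was 2 without any 1 of Con_253, Con_261 or Con_264, 23 without cKO_262 and 19 without cKO_265, and 0 members changed in each of these. At an unadjusted p under 0.05, 2 members were lower and 0 higher, against 7.82% and 6.81% of all tested genes. The 3 libraries of each group stood apart for 3 members, all with lower values in Jmjd3-deficient cells, against 11.9% of tested genes in that direction and 9.59% in the other. These 3 were all transcription factor genes (Elf3, Ovol1 and Ehf). The median log2 fold change was 0.0086 for the members and -0.04 for all tested genes. In bulk samples, fewer cells of a type and less RNA per cell cannot be told apart.

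The adhesion genes had near-equal values in the groups. Epcam, a surface glycoprotein that steadies claudins at the membrane, had 813, 839 and 945 FPKM in Jmjd3-deficient cells, against 751, 887 and 778 FPKM in controls, each in the order in which the libraries were introduced, which is kept throughout. The groups overlapped, and the log2 fold change was 0.11 (SE 0.15, 95% confidence interval -0.23 to 0.44, limma adjusted p = 0.784). The interval corresponds to 0.854 to 1.35 times the control level. Cdh1 was at 120.4, 127 and 118 FPKM in Jmjd3-deficient cells, against 118, 108 and 116 FPKM in controls. The libraries of each group were alike, with a coefficient of variation of 3.68% in Jmjd3-deficient cells and 4.53% in controls. The log2 fold change was 0.09 (SE 0.12, interval -0.19 to 0.37, limma adjusted p = 0.771). Both differences turned negative under quantile normalization (-0.33 for Epcam and -0.14 for Cdh1). The median log2 fold change of the 843 genes averaging 100 FPKM or more was 0.28 as deposited and 0.0078 under quantile normalization, so the values of Epcam and Cdh1 lay below the median of genes of their level.

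The claudins did not move together. Cldn7, a basolateral as well as junctional claudin that binds Epcam, was at 1018, 1150.0 and 694 FPKM in Jmjd3-deficient cells, against 1106, 1123 and 682 FPKM in controls. Each group held 1 low library, cKO_265 and Con_264, and the log2 fold change was -0.020 (SE 0.26, interval -0.60 to 0.56, limma adjusted p = 0.982). Under quantile normalization it was -0.48 (limma unadjusted p = 0.0472, adjusted p = 0.385). Cldn4, a barrier-forming claudin, was at 462, 478 and 442 FPKM in Jmjd3-deficient cells, against 459, 422 and 329 FPKM in controls (log2 fold change 0.20, SE 0.16, interval -0.16 to 0.57, limma adjusted p = 0.597). The groups overlapped through Con_253, and the difference was -0.10 under quantile normalization and 0.07 without Con_264.

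Cldn3, also a barrier-forming claudin, had the lowest difference of the members. It was at 23.3, 25.9 and 11.7 FPKM in Jmjd3-deficient cells, against 34.0, 40.9 and 22.2 FPKM in controls. The groups overlapped, because Con_264 lay below cKO_262 and cKO_263. The log2 fold change was -0.68 (SE 0.32, interval -1.40 to 0.04, limma adjusted p = 0.365), and it was -0.34 without cKO_265 and -0.29 when Con_253 was left out as well. Cldn6, a claudin of embryonic epithelia, was at 2.73, 2.78 and 1.99 FPKM in Jmjd3-deficient cells, against 2.52, 3.22 and 1.62 FPKM in controls (log2 fold change 0.037, SE 0.22, limma adjusted p = 0.959). The sign of the difference turned in 5 of 16 alternatives for Cldn6 and in 6 of 17 for Cldn7.

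The transcription factor genes held the members whose groups stood apart. Elf3, an ETS factor of differentiated epithelia, was at 86.6, 79.9 and 65.9 FPKM in Jmjd3-deficient cells, against 132, 130.5 and 95.6 FPKM in controls. All 3 deficient libraries lay below all 3 controls. The mean was 77.5 ± 10.6 FPKM in Jmjd3-deficient cells and 119 ± 20.5 FPKM in control cells (SD, n = 3 each), 0.655 times the control level on the log2(FPKM + 1) scale. The log2 fold change of -0.61 (SE 0.18, interval -1.01 to -0.21, unadjusted p = 0.00763) did not pass over all genes (limma adjusted p = 0.190). Its direction held in all 17 alternatives, from -0.80 to -0.42.

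Elf3 has 2 rows at the same coordinates in the tables, which were summed. The larger row was at 65.6, 71.4 and 38.4 FPKM in Jmjd3-deficient cells, against 102 and 110.2 FPKM in Con_253 and Con_261 and 64.2 FPKM in Con_264. The smaller row was at 20.96, 8.498 and 27.4 FPKM in Jmjd3-deficient cells, against 29.3, 20.3 and 31.4 FPKM in controls. Each row alone overlapped between the groups, and only their sum stood apart. The smaller row held 10.6% to 41.6% of the sum in Jmjd3-deficient cells and 15.6% to 32.8% in controls.

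Ehf, a close relative of Elf3 in the ETS family, was at 9.25, 9.82 and 10.2 FPKM in Jmjd3-deficient cells, against 11.01, 13.3 and 16.4 FPKM in controls. The deficient libraries lay close together and below all controls, which were spread more widely. The log2 fold change of -0.42 (SE 0.17, interval -0.82 to -0.02, unadjusted p = 0.0400) did not pass over all genes (limma adjusted p = 0.312). It ranged from -0.58 to -0.29 over the 17 alternatives. Ovol1, a zinc finger factor that represses mesenchymal genes, was at 13.0, 12.9 and 12.2 FPKM in Jmjd3-deficient cells, against 14.1, 14.3 and 13.3 FPKM in controls. Its groups stood apart by little, with a log2 fold change of -0.12 (SE 0.14, limma adjusted p = 0.736). Grhl2, a grainyhead-like factor known as an activator of Cdh1 and Cldn4 in mouse epithelia, was at 20.2, 17.4 and 18.5 FPKM in Jmjd3-deficient cells, against 19.2, 17.9 and 16.1 FPKM in controls. The groups overlapped (log2 fold change 0.07, SE 0.14, interval -0.25 to 0.40, limma adjusted p = 0.856), and the difference was -0.026 when each library was scaled to its Epcam value.

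**Figure D2:**
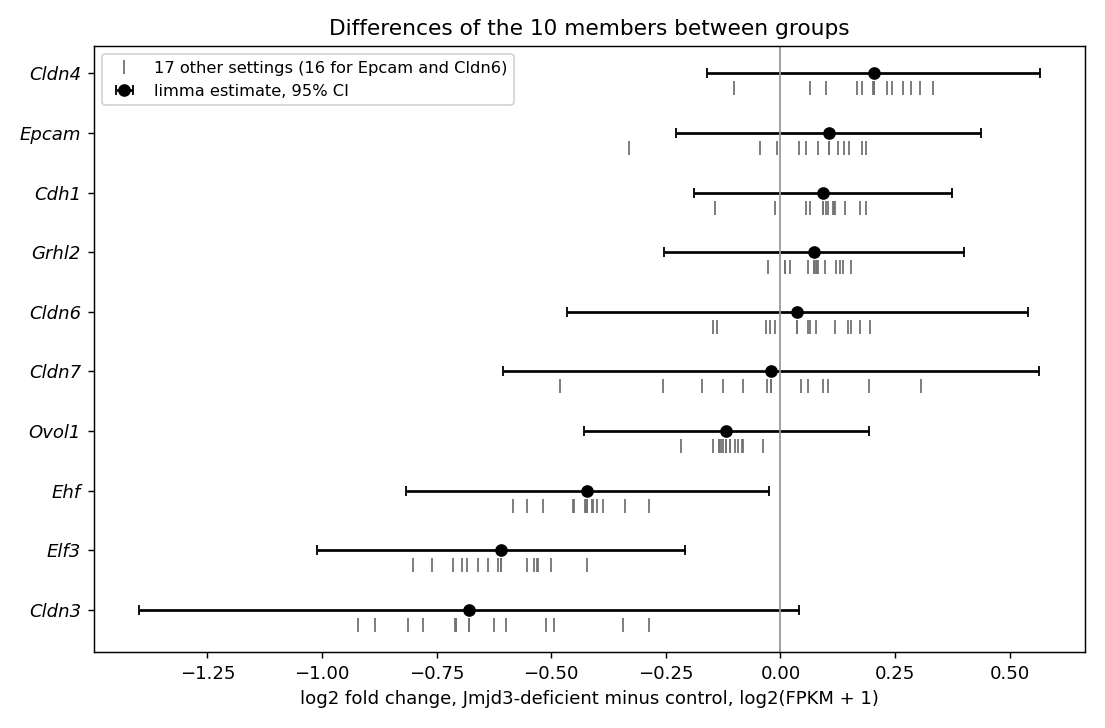
Log2 fold change of each member, Jmjd3-deficient minus control on log2(FPKM + 1), with its 95% confidence interval (points and bars) and the values under the other settings (ticks). Only the intervals of Elf3 and Ehf lie wholly below 0, and the ticks of Cldn3, Elf3, Ehf and Ovol1 stay below 0 while those of the other 6 members cross it.

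The spread within groups was read against the base composition of the transcripts. Libraries Con_264 and cKO_265 had low values for transcripts rich in G and C. Across 14800 genes, the deviation of a library from its group's mean had a Spearman correlation with the GC content of the longest coding transcript of -0.478 in cKO_265 and 0.401 and 0.211 in cKO_262 and cKO_263, and of -0.669 in Con_264 and 0.504 and 0.335 in Con_253 and Con_261. These correlations are descriptions across genes that share a library. The Cldn3 transcript has 62.8% GC, more than 98.7% of tested genes, and those of Cldn7, Cldn4 and Elf3 have 57.0%, 56.8% and 56.5%. The Ehf transcript has 42.5%, which is more than 10.6% of tested genes.

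Several members deviated in the same way, though not in strict order of GC content. Cldn3 was 0.71 below its group's mean log2 value in cKO_265 and 0.50 below it in Con_264, and Cldn7 was 0.43 and 0.47 below. Ehf was 0.07 above in cKO_265 and 0.29 above in Con_264. Cldn6, with 54.4% GC, was 0.32 below in cKO_265 and 0.54 below in Con_264, where it was the lowest member. Cldn4, with 56.8% GC, was only 0.06 below in cKO_265 and 0.28 below in Con_264. Cdh1, with 50.7% GC, deviated by at most 0.074 from its group's mean (Con_261, below it).

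**Figure D3:**
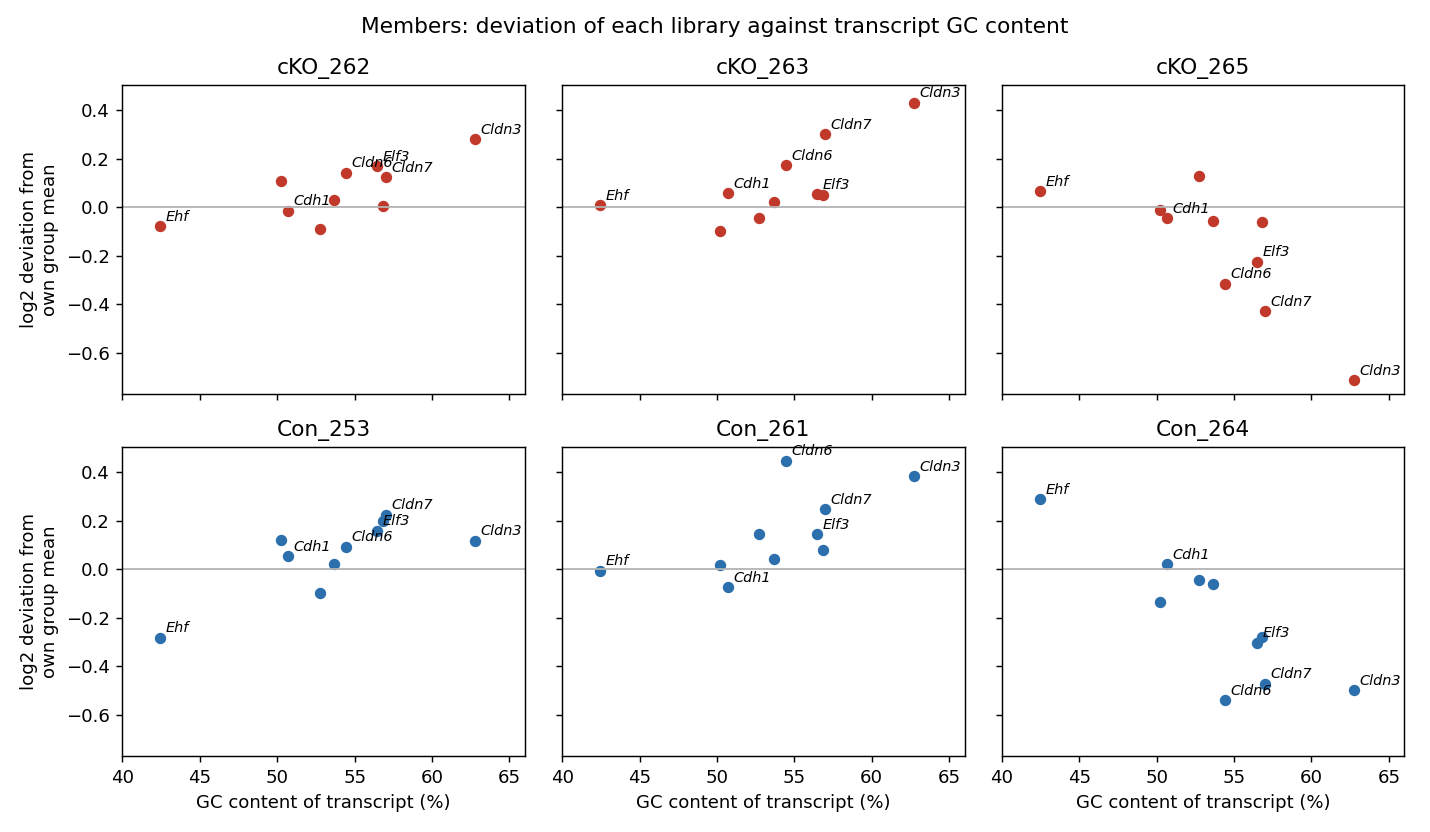
Deviation of each member from its own group's mean on the log2 scale (vertical) against the GC content of its transcript in percent (horizontal), 1 panel per library. Cldn3, the member with the most GC, lies lowest in cKO_265 (-0.71), and Ehf, with the least, lies highest in Con_264 (0.29). Cldn6, with 54.4% GC, lies lowest in Con_264 (-0.54).

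A correction for transcript GC, chosen after seeing the data, was added. It takes off each library's trend with GC across all genes. The within-group SD of log2 values was 0.088 for Elf3, 0.26 for Cldn3 and 0.11 for Ehf after it, against 0.23, 0.52 and 0.19 without it, while that of Epcam was 0.16, against 0.12 without it. Corrected log2 values of Elf3 were 6.35, 6.32 and 6.28 in Jmjd3-deficient cells, against 6.92, 6.96 and 6.73 in controls. The log2 fold changes were -0.55 for Elf3 (limma adjusted p = 0.0748), -0.51 for Cldn3 (adjusted p = 0.173) and -0.40 for Ehf (adjusted p = 0.139). The groups stood apart with lower values in Jmjd3-deficient cells for these 3 genes, against 13.2% of the 14800 genes corrected, and with higher values for Cdh1 and Cldn4, against 14.1%. Ovol1 then overlapped, and 0 members changed (limma). Whether base composition had a part in the group differences was not tested beyond this.

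With library weights estimated by limma, 3 members passed, all lower in Jmjd3-deficient cells (Elf3 with an adjusted p of 0.00698, Cldn3 with 0.0386 and Ehf with 0.0401). That fit called 3025 genes, and 10.5% of tested genes as lower. It gave Con_261 a weight of 8.72 and cKO_265 a weight of 0.263, so the libraries enter it very unequally.

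Ratios within a library do not depend on a single scaling factor per library. They keep shifts that vary with level or base composition. As deposited, the median log2 fold change was 0.28 for genes averaging 100 FPKM or more and -0.035 for all tested genes. Of the pairs possible, 4 were taken after seeing the values, and all 4 stood apart. That choice fixed the exact permutation p at 0.1 (2-sided) for each, the smallest that 3 against 3 libraries allow. It was also 0.1 after adjustment over the 4, which does not cover the choice among pairs, so no conclusion is drawn from it. Elf3 relative to Epcam was 10.6%, 9.52% and 6.97% in Jmjd3-deficient cells, against 17.5%, 14.7% and 12.3% in controls. Ehf relative to Epcam was 1.14%, 1.17% and 1.08% in Jmjd3-deficient cells, against 1.47%, 1.503% and 2.10% in controls. Neither ratio overlapped between the groups, which held with lower values in Jmjd3-deficient cells for 14.8% of all genes set against Epcam.

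The ratios between claudins separated the groups as well. Cldn3 relative to Cldn7 was 2.29%, 2.25% and 1.68% in Jmjd3-deficient cells, against 3.08%, 3.64% and 3.25% in controls, and 6.65% of all genes set against Cldn7 stood apart in this direction. Cldn3 relative to Cldn4 was 5.04%, 5.41% and 2.64% in Jmjd3-deficient cells, against 7.41%, 9.70% and 6.73% in controls, where 20.5% of genes set against Cldn4 stood apart. Without cKO_265, the difference of the log2 ratios was -0.55 for Cldn3 to Cldn7 and -0.59 for Cldn3 to Cldn4, against -0.69 and -0.92 with all libraries.

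**Figure D4:**
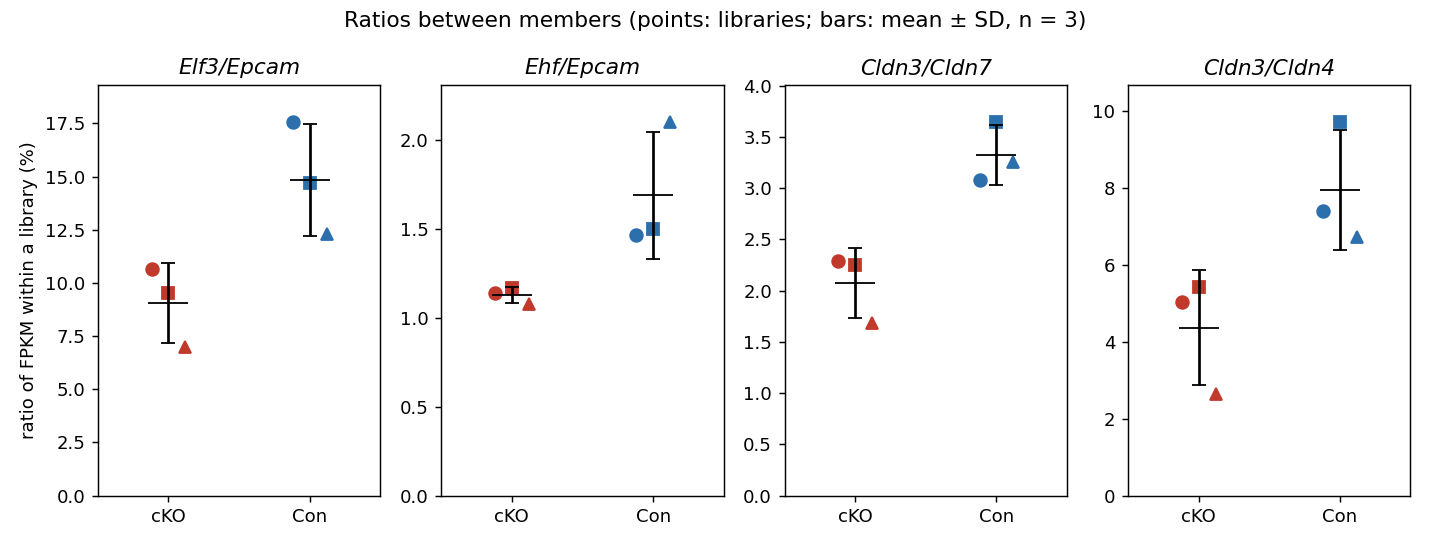
Ratios of FPKM between members within each library in percent, Jmjd3-deficient left and control right, with mean ± SD (n = 3 each). All 3 deficient libraries lie below all 3 controls in each of the 4 panels.

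Other genes of the junctions were read from lists. Over all tested genes, 6.81% were higher and 7.82% lower at an unadjusted limma p under 0.05. The groups stood apart with higher values for 9.59% and with lower values for 11.9%. Of 22 other claudin and claudin-domain genes 13 were tested, and 0 changed in either direction (limma), with 1 higher and 1 lower at an unadjusted p under 0.05. Cldn13, which lies 29592 bases from Cldn4, was at 62.2, 68.6 and 71.2 FPKM in Jmjd3-deficient cells, against 44.6, 48.7 and 42.3 FPKM in controls. The groups stood apart (log2 fold change 0.56, SE 0.13, limma adjusted p = 0.138). The 3 claudin genes of this stretch thus had differences of 0.56 for Cldn13, 0.20 for Cldn4 and -0.68 for Cldn3. Cldn2, a pore-forming claudin, averaged 1.76 ± 0.382 FPKM in Jmjd3-deficient cells and 3.49 ± 0.908 FPKM in control cells (SD, n = 3 each, log2 fold change -0.69, limma adjusted p = 0.205). Cldn9, the neighbour of Cldn6, was at -0.34 (limma adjusted p = 0.485), and at -0.18 without cKO_263.

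Of 26 tested partners of tight junctions 0 changed (limma). At an unadjusted p under 0.05, 1 was higher and 3 were lower, against 6.81% and 7.82% of all tested genes. The lower values were those of Marveld2 and Ildr1, which act at corners where 3 cells meet, and of F11r, a junctional adhesion molecule. Ildr1 averaged 17.5 ± 0.731 FPKM in Jmjd3-deficient cells and 23.0 ± 0.929 FPKM in control cells (SD, n = 3 each). Marveld2 was at -0.45 and F11r at -0.38 (limma adjusted p = 0.238 and 0.281), and F11r was at -0.60 under quantile normalization. The higher values were those of the junction scaffold gene Cgn, at 0.37 (limma adjusted p = 0.305). The list's median was -0.03.

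Of 17 tested partners of the adherens junction 0 changed (limma). At an unadjusted p under 0.05, 3 were higher and 1 was lower, against 6.81% and 7.82% of all tested genes. Both catenins that link Cdh1 to the cytoskeleton stood apart, in opposite directions, where 9.59% of all tested genes stood apart higher and 11.9% lower. The alpha-catenin gene Ctnna1 was at 78.2, 110.1 and 113 FPKM in Jmjd3-deficient cells, against 54.4, 55.6 and 67.4 FPKM in controls (log2 fold change 0.74, SE 0.18, limma adjusted p = 0.146). The beta-catenin gene Ctnnb1, also a carrier of Wnt signals, was at 78.5, 76.7 and 70.2 FPKM in Jmjd3-deficient cells, against 87.8, 104.5 and 110.0 FPKM in controls (log2 fold change -0.41, SE 0.14, limma adjusted p = 0.238). The other higher ones were the actin linker gene Vcl at 0.36 and Cdhr1, a cadherin-related gene known from photoreceptors, at 0.47 (limma adjusted p = 0.290 and 0.165). Under quantile normalization Vcl was at 0.24 and Cdhr1 at 0.19, and the unadjusted limma p was 0.146 and 0.185. Ctnna1 was then at 0.57 (limma unadjusted p = 0.0126), so it alone of these genes had higher values at a p under 0.05.

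Of 13 tested desmosome genes 0 changed (limma) and 0 had an unadjusted p under 0.05. The 3 with the smallest p were Dsp, which anchors keratin filaments, at -0.49, Pkp4 at -0.25 and Dsc3 at -0.27 (limma adjusted p = 0.345 to 0.561). Without Con_264 Dsp was at -0.26 and Dsc3 at -0.09. Of the 10 tested partners of Epcam and surface proteases 0 changed (limma). At an unadjusted p under 0.05, 3 were lower, against 7.82% of all tested genes. These were the tetraspanin genes Tspan8 at -0.62 and Cd9 at -0.46 and the protease gene Tmprss2 at -0.42 (limma adjusted p = 0.135, 0.289 and 0.222). The groups overlapped for Cd9.

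Of 22 tested epithelial regulators other than the members 0 changed (limma). At an unadjusted p under 0.05, 1 was lower and 0 were higher, against 7.82% and 6.81% of all tested genes. Lower values in Jmjd3-deficient cells were found for 18 and higher values for 4, where 54.7% of all tested genes had lower values, and the median was -0.15. The groups stood apart with lower values for 3 (Trp63, Tfcp2l1 and Zfp750) and with higher values for 1, against 11.9% and 9.59% of all tested genes. The latter was Esrp1, a splicing regulator of epithelia (136.8 ± 8.43 FPKM in Jmjd3-deficient cells and 120.6 ± 7.52 FPKM in control cells, SD, n = 3 each, limma adjusted p = 0.556). Its log2 fold change of 0.18 lay below the median of 0.28 for genes averaging 100 FPKM or more. Trp63, the master factor of basal epithelial cells, had the smallest p, at 11.3, 10.1 and 10.3 FPKM in Jmjd3-deficient cells, against 17.1, 17.8 and 22.5 FPKM in controls (log2 fold change -0.79, SE 0.16, limma adjusted p = 0.118). Trp63 has several rows, and the highest of them in place of their sum gave -1.33 (limma adjusted p = 0.0876). Tfcp2l1 and Zfp750 followed at -0.35 and -0.22 (limma adjusted p = 0.375 and 0.508).

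**Figure D5:**
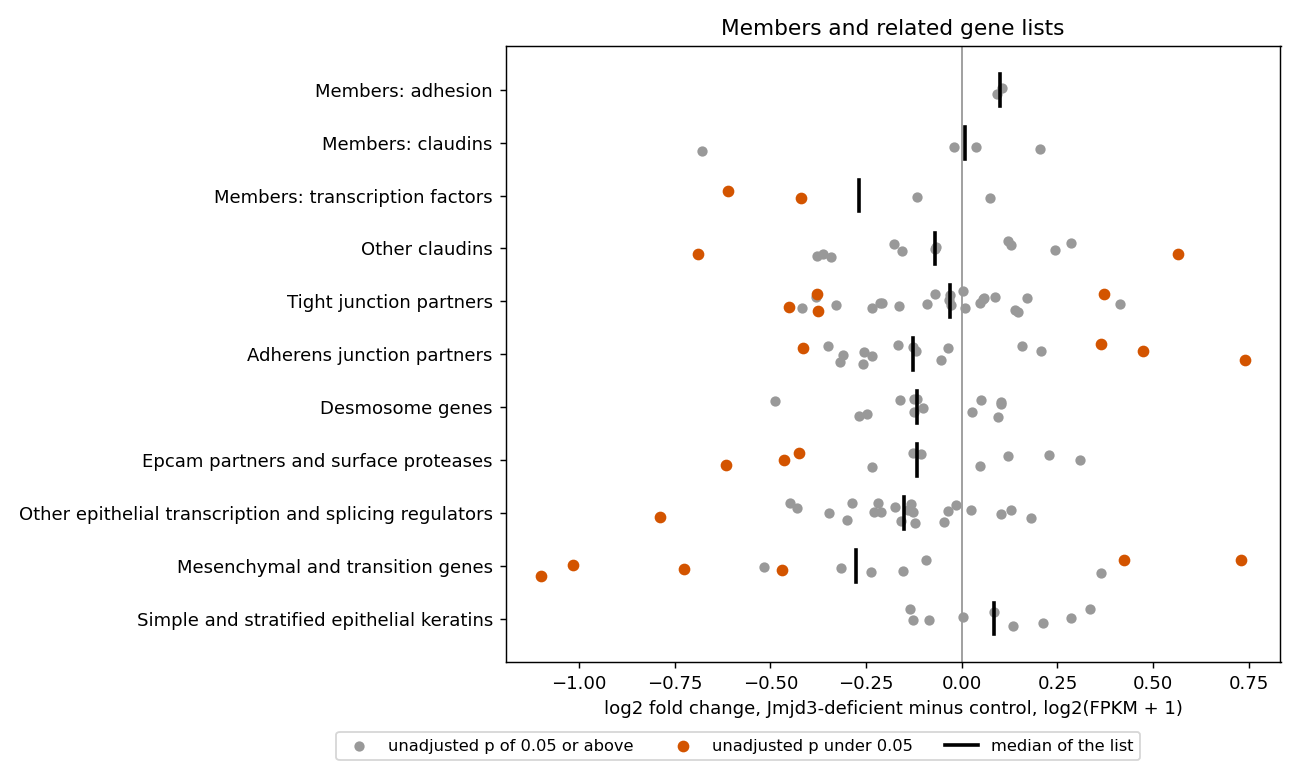
Log2 fold change, Jmjd3-deficient minus control, of every tested gene of the members and of related lists, with orange for an unadjusted p under 0.05 and a bar at each list's median. The medians lie between -0.28 for the mesenchymal list and 0.10 for the adhesion members. The positive values of the adhesion members and of Krt14, Krt17 and Krt18 turned negative under quantile normalization.

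Markers of other cells were read beside these results, and their part in them was not tested. The summed level of the 18 thymocyte markers was 388 to 424 FPKM in Jmjd3-deficient libraries and 283 to 445 FPKM in controls, with 6 of 15 tested lower and 1 higher at an unadjusted p under 0.05. The 10 endothelial markers summed to 20.9 to 26.4 FPKM in Jmjd3-deficient libraries and 21.1 to 27.3 FPKM in controls. The 10 fibroblast and pericyte markers summed to 129 to 133 FPKM in Jmjd3-deficient libraries, below the 145 to 171 FPKM in controls. Rgs5 alone averaged 79.5 FPKM of this in Jmjd3-deficient cells and 98.2 FPKM in control cells. Of the 9 tested, 4 had higher and 5 had lower values, and 1 stood apart in each direction. The 13 macrophage and dendritic cell markers summed to 346 to 409 FPKM in Jmjd3-deficient libraries and 410.1 to 450.3 FPKM in controls. Of the 11 tested, 8 had lower values and 3 had higher ones. At an unadjusted limma p under 0.05, 2 were lower, Lyz2 among them, and 2 were higher, Aif1 and Fcer1g. The shares over all tested genes were 7.82% lower and 6.81% higher. Aif1 averaged 13.7 ± 3.16 FPKM in Jmjd3-deficient cells and 4.29 ± 0.440 FPKM in control cells (SD, n = 3 each, log2 fold change 1.46, limma adjusted p = 0.0555), and Fcer1g was at 1.12 (limma adjusted p = 0.234). The 20 tuft-like mTEC markers summed to 220.2 to 320 FPKM in Jmjd3-deficient libraries and 419 to 545 FPKM in controls. Of these, 5 fell (limma, adjusted p under 0.05), where 0.0763% of all tested genes changed in either direction. Elf3 and Ehf also stood apart with lower values, as 11.9% of all tested genes did, and a link to this list was not tested. The 10 markers of cortical thymic epithelium summed to 1129 to 1583 FPKM in Jmjd3-deficient libraries and 989 to 1190 FPKM in controls. Tbata (0.58) and Cd83 (0.42) stood apart with higher values and Dll4 (-0.37) and Cxcl12 (-0.38) with lower ones, and 0 of the 10 changed (limma). The 5 B cell markers found summed to 40.8 to 56.0 FPKM in Jmjd3-deficient libraries and 38.8 to 51.7 FPKM in controls, with Pax5 listed at 0 in cKO_265. Most of this was Cd79b, which averaged 42.7 FPKM in Jmjd3-deficient cells and 34.4 FPKM in control cells. The other 4 had lower values. The 20 mTEC markers found summed to 18635 to 21542 FPKM in Jmjd3-deficient libraries and 19003 to 20805 FPKM in controls. This sum was carried above all by Cd74 and H2-Aa, so it says little of the other markers. Cd74 averaged 7952 FPKM in Jmjd3-deficient cells and 8722 FPKM in control cells, and H2-Aa 4057 and 4171 FPKM. Coro1a was the most abundant thymocyte marker (306 ± 23.4 FPKM in Jmjd3-deficient cells and 228 ± 64.0 FPKM in control cells, SD, n = 3 each). It carried most of that list's mean sums of 407 and 353 FPKM, while 11 of the 15 tested had lower values and 4 higher ones. Lyz2 was the most abundant macrophage marker (261.3 ± 17.5 FPKM in Jmjd3-deficient cells and 345 ± 19.1 FPKM in control cells, SD, n = 3 each). Listed symbols not matched in the tables were Cldnd1, Patj, Pals1, Nectin1, Nectin2, Nectin3, Nectin4, Afdn, Eplin, Ovol3, Ccl21a, Adgre1, Ighm and Sh2d6. Some of these are other names of genes that were matched and tested. The nectin genes were tested as Pvrl1, Pvrl2, Pvrl3 and Pvrl4, Afdn as Mllt4 and Eplin as Lima1. Patj was tested as Inadl, Pals1 as Mpp5 and Adgre1 as Emr1.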

How the data were processed

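The authors deposited 1 table of FPKM values per library. Bowtie2 (version 2.2.5), Cufflinks and mm10 are the tools and build listed in the submitters' processing notes. Which annotation and strand setting were used, and whether libraries were scaled to each other, is not given in the sources used here. Per the labels' protocols, cDNA of sorted cells was amplified with a whole-transcriptome kit before library preparation, which can favour transcripts by length and base composition. The tables hold no counts, so depth is unknown and no counting error can be given.

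Rows of a symbol were summed, and the 44 rows whose symbols had become dates were left out. Starts were raised by 1 base. The test was limma (version 3.58.1, R 4.3.3) on log2(FPKM + 1), for genes averaging 0.5 FPKM or more (trend, 2-sided, Benjamini-Hochberg over all 15720 genes, threshold 0.05). Adding 1 makes fold changes of low genes too small. Ratios were compared with an exact permutation test. The members and lists were chosen with earlier results of these data known. The junction, regulator, mesenchymal and keratin lists had a naming rule. It gave all genes past the threshold, the 3 with the smallest p and others with an unadjusted limma p under 0.05. Esrp1, Snai1 and Zeb1 were named outside this rule. Genes of the cell type lists were named for their level, a small p or groups that stood apart. Alternatives were another pseudocount (0.1), 2 filters, quantile normalization, median centring, library weights, no trend, the highest row of a symbol and libraries left out. Scaling to Epcam and a correction for the GC content of the longest GENCODE M21 transcript (lowess of each library's deviation from the mean of all 6 libraries, 14800 genes) were added after seeing the data. A gene of the marker lists is not reported here.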

Additional observations from a re-analysis of the deposited data

How the results depend on the processing

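No paired analysis was possible because the labels do not pair any Jmjd3-deficient library with a control library. The number of changed genes was 12, and it was 3025 with library weights, 22 when scaled to Epcam and 44 after the GC correction. It ranged from 2 to 23 with 1 library left out, with 2 without Con_253, Con_261 or Con_264, 23 without cKO_262 and 19 without cKO_265. The number of changed members was 3 with library weights and 0 under the 16 other alternatives. The members' median log2 fold change was -0.24 under quantile normalization and -0.15 to 0.07 with libraries left out. Differences of members turned sign as follows. For Epcam they were -0.33 under quantile normalization, -0.044 with library weights and -0.0082 to 0.18 with libraries left out, the lowest without both Con_253 and cKO_265. For Cdh1 they were -0.14 under quantile normalization and -0.012 when scaled to Epcam. For Cldn4 the value was -0.10 under quantile normalization, and for Grhl2 -0.026 when scaled to Epcam. For Cldn7 they were 0.061 under median centring, 0.045 after the GC correction and 0.31 without both libraries, and -0.26 to 0.19 with 1 library left out (positive without cKO_265, 0.09 without Con_253 and 0.10 without Con_261). For Cldn6 they were -0.14 with library weights, -0.031 when scaled to Epcam and -0.15 to 0.19 with 1 library left out (-0.013 without cKO_262, -0.024 without cKO_263 and -0.15 without Con_264). Under quantile normalization Krt17, Krt14 and Krt18 were at -0.079, -0.12 and -0.27. The 30 other genes read this way were Kdm6b and those that the naming rule gave. Of their 504 values under the alternatives, 479 kept their direction and side of the threshold, 22 newly passed it, and 3 (the keratins) turned. The cause of these changes was not tested. Unknown depth limits the low members most, above all Cldn6.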

Other observations

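Mesenchymal genes, which epithelial factors such as those above are known to repress, split by gene. A part of these factors in the values below was not tested. Of 12 tested genes of that list 0 changed (limma), and the median was -0.28. At an unadjusted p under 0.05, 2 were higher and 4 lower, against 6.81% and 7.82% of all tested genes. Vim, the intermediate filament gene of mesenchymal cells, was at 491, 560.4 and 537 FPKM in Jmjd3-deficient cells, against 319, 323 and 314 FPKM in controls (log2 fold change 0.73, SE 0.13, limma adjusted p = 0.107, and 0.42 under quantile normalization). Fn1, the fibronectin gene, averaged 57.0 ± 7.36 FPKM in Jmjd3-deficient cells and 41.9 ± 0.834 FPKM in control cells (SD, n = 3 each). Its log2 fold change was 0.42 (limma adjusted p = 0.234), 0.31 under quantile normalization and 0.96 with the highest row of the symbol. The transition factor genes Twist1 and Snai2 had lower values instead, while the groups overlapped for Snai1 and Zeb1. Twist1 was at 0.162, 0.0758 and 0.132 FPKM in Jmjd3-deficient cells, against 2.12, 1.69 and 0.394 FPKM in controls, and Snai2 was at 6.57, 4.22 and 7.05 FPKM in Jmjd3-deficient cells, against 8.42, 9.45 and 13.6 FPKM in controls (limma adjusted p = 0.188 and 0.227). Twist1 averaged 0.123 FPKM in Jmjd3-deficient cells, so it passed the filter of 0.5 FPKM only through the controls. Without Con_253 it was not tested. The log2 fold change of Twist1 was -1.02, and -2.51 with a pseudocount of 0.1, so its size rests on values near 0 FPKM. The protease gene Mmp2 was at 2.88, 2.52 and 2.30 FPKM in Jmjd3-deficient cells, against 8.06, 6.08 and 5.92 FPKM in controls (log2 fold change -1.10, SE 0.18, limma adjusted p = 0.0981, and 0.0405 after the GC correction). The matrix gene Sparc was at -0.47 (limma adjusted p = 0.238).

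Keratin genes, the cytoskeleton behind the desmosomes, were among the highest of all lists. Of 9 tested keratins 0 changed (limma) and 0 had an unadjusted p under 0.05. The groups stood apart with higher values for 1, against 9.59% of all tested genes. Krt17 was at 2458, 2701 and 2265 FPKM in Jmjd3-deficient cells, against 2118, 2139 and 1835 FPKM in controls, and the groups stood apart (log2 fold change 0.28, limma adjusted p = 0.448), although the sign turned under quantile normalization (-0.079). Krt14 was at 0.34 and Krt18 at 0.13 (limma adjusted p = 0.516 and 0.7003), and both also turned (-0.12 and -0.27). Krt14 was at 0.54 without cKO_265.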
